A study of Homo sapiens with 6 samples.

Results

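The genes described here are 34 components of the apoptosis machinery: the BCL2 family, caspases, mitochondrial death factors, inhibitor of apoptosis proteins, the proteins that assemble at death receptors, and the caspase-activated nuclease. They were chosen by gene symbol, not by their values, from the 27980 symbols of the count table, and all 34 passed the low-count filter that left 15473 genes for testing. The cells were RKO, which derive from a poorly differentiated human carcinoma of the colon. In 3 libraries (shTRIP6) they had stably integrated a lentiviral hairpin directed at TRIP6, which encodes a LIM-domain adaptor of the zyxin family, and in the 3 others (shControl) a scrambled hairpin. All cells had been infected with lentivirus and, from 36 h later, kept in puromycin at 5 µg/ml for 2 to 3 weeks before RNA was taken. The labels give the control genotype as WT, and say neither how many hairpins were used nor whether the selected populations were clones or pools. The labels name the libraries of each group biological replicates.

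Apoptosis is executed by caspases, proteases that are made as inactive precursors. In the intrinsic route, BH3-only proteins carry a short helix, the BH3 motif, that binds the groove of anti-apoptotic BCL2 proteins or activates the effectors, which permeabilise the mitochondrial outer membrane. Cytochrome c then assembles the apoptosome with APAF1 and caspase-9. In the extrinsic route, ligand-bound death receptors recruit FADD, caspase-8 and caspase-10, a step that CFLAR restrains, and cleavage of BID by caspase-8 links this route to mitochondria. Transcript levels are not measures of cleaved caspases or of cell death.

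The sequences that unite the BH3-only genes are shown first, since these genes differ in direction while sharing this motif. Each stretch below is 33 bases (11 codons) of the coding strand, 5′ to 3′, read from GENCODE release 29 transcripts (GRCh38). Capitals mark the codon of the conserved leucine and the codons of the small residue (glycine, alanine or serine) and aspartate that characterise the motif.
BMF: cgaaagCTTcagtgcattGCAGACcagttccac
BCL2L11: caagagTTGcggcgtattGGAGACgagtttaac
HRK: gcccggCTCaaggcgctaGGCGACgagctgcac
BAD: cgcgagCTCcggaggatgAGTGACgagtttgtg
BID: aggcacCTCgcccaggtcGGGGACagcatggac
BIK: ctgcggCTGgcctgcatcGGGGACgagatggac
PMAIP1: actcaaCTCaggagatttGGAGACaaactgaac
BOK: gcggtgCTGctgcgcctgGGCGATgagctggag
BAK1: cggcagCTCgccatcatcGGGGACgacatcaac
BOK and BAK1 are effectors that carry the motif within a larger multidomain fold.

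Levels are given as CPM, counts scaled to library size, on library sizes scaled by TMM, a scaling that equalises the bulk of genes between libraries, and errors of levels are SD with n = 3 in each group. A log2 change is the log2 ratio of shTRIP6 to shControl, given with its SE. A gene was called higher or lower when its adjusted p (edgeR quasi-likelihood test, Benjamini-Hochberg over all genes tested) was under 0.05. Depth was 31096598 to 32089298 counts in shTRIP6 libraries and 29605764 to 30949334 in shControl libraries, so that a single count was worth 0.0314 to 0.0336 CPM. TRIP6 itself stood at 19.8, 19.4 and 19.5 CPM in the shTRIP6 libraries, against 73.9, 86.5 and 80.6 CPM in the shControl libraries. That was 24.3% of the shControl level (log2 change -2.04 ± 0.07, adjusted p = 1.25e-14). Of the shControl libraries, replicate 1 stood furthest from the others, with chi-square values per degree of freedom of 11.2 and 12.2 against replicates 2 and 3, which had 4.92 between them. Pairs of shTRIP6 libraries had 3.08 to 4.73, and pairs across the groups 125 to 143. Of the markers of the cell type, KRT8 and KRT18 carried nearly all of the summed epithelial level (2535 to 2731 CPM in shTRIP6 and 2574 to 2870 CPM in shControl), while EPCAM, KRT20 and VIL1 had 0 counts in all 6 libraries, each of which allows up to 0.0941 to 0.101 CPM. CDH1 had at most 1 count in any shTRIP6 library and at most 9 in any shControl library. That sum conceals differences: of 10 epithelial markers, KRT19 was called higher (log2 change 1.87, adjusted p = 7.84e-12), and ELF3, an epithelial transcription factor, was called lower at 0.799 ± 0.507 CPM in shTRIP6 and 61.8 ± 4.04 CPM in shControl (log2 change -6.27 ± 0.17, adjusted p = 3.42e-16), as was CLDN4 (log2 change -2.88, adjusted p = 0.000619). Among other cell types, the leukocyte list (7 markers, CD14 and CD68 called higher) summed to 236 to 245 CPM in shTRIP6 and 187 to 236 CPM in shControl, nearly all of it CD68, with PTPRC and CD3E at 0 counts in shTRIP6 and at most 8 in a shControl library. The fibroblast list (8 markers, 4 called lower and 1 higher) summed to 17.2 to 19.0 CPM in shTRIP6 and 30.6 to 34.4 CPM in shControl, and the endothelial list (6 markers, 1 called lower) to 0.257 to 0.288 CPM in shTRIP6 and 1.78 to 2.31 CPM in shControl, with DCN and PECAM1 at 0 counts in shTRIP6. In the order given, 5, 2, 7 and 1 markers of the 4 lists were tested, and their calls stand beside 60.1% of all tested genes called. Markers of all 4 lists thus differed between the groups, and their part in the results below was not tested. In bulk RNA, fewer cells that express a gene and less RNA of it per cell cannot be told apart.

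Of the 34 genes, 14 rose and 7 fell in shTRIP6 cells, and 13 were not called in either direction. The 21 called genes were 61.8% of the 34, beside 60.1% of all 15473 tested genes, so the share of calls was near the background. The 14 that rose were 41.2% of the 34, beside 29.0% of all tested genes, and the 7 that fell were 20.6%, beside 31.2%. Among the 13913 genes averaging at least 1 CPM, as 33 of the 34 did, 31.1% were called higher and 31.7% lower. Without shControl replicate 1, 15 of the 34 were called higher and 7 lower. The median log2 change of the 34 was 0.17, beside -0.004 over all tested genes. Falls were the larger in size: the called falls had a median log2 change of -0.91 and the called rises one of 0.45. Over all tested genes these medians were not taken, but called falls of 2-fold or more (10.5%) outnumbered such rises (4.38%). In 3 genes (8.82%, beside 10.5% of all tested genes) the fall was 2-fold or more, namely in HRK, BMF and BCL2L11, all BH3-only. In 1 gene (2.94%, beside 4.38%), the effector BOK, the rise was 2-fold or more. The groups did not overlap in 25 of the 34 genes (73.5%), beside 65.3% of all tested genes. Within a group the libraries were close, with a median coefficient of variation over the 34 genes of 4.80% in shTRIP6 and 6.70% in shControl.

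**Figure D1:**
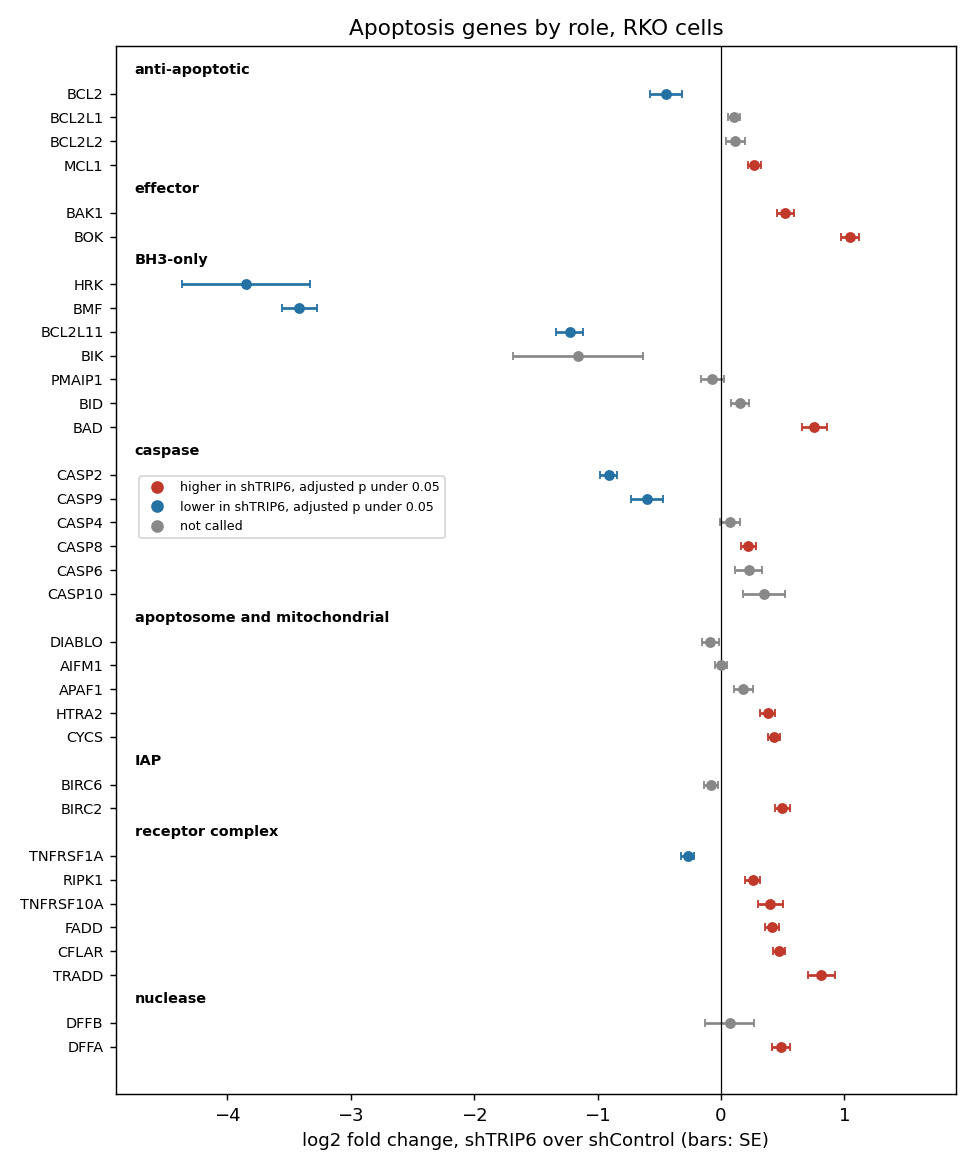
Log2 change of shTRIP6 over shControl for each of the 34 genes, grouped by role, with bars of 1 SE from edgeR and colours for genes called higher, called lower or not called. The log2 changes run from -3.85 (HRK) to 1.04 (BOK), and the 3 largest falls are all BH3-only genes.

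The BH3-only genes were split. Of 7, 3 fell (42.9%, beside 31.2% of all tested genes called lower), 1 rose (14.3%, beside 29.0% called higher) and 3 were not called. BMF encodes a BH3-only protein that is held at the actin cytoskeleton through a dynein light chain until it is released. It lies at chr15:40087890-40108892, minus strand (GRCh38). BMF had 1.76, 1.69 and 2.22 CPM in the shTRIP6 libraries, against 20.0, 20.6 and 20.0 CPM in the shControl libraries. Every shTRIP6 library was far below every shControl library, at 9.36% of the shControl mean, a 10.7-fold lower level (log2 change -3.42 ± 0.14, adjusted p = 1.22e-13). The shTRIP6 libraries still held 53 to 69 counts of BMF, so the remaining level was measurable.

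HRK (harakiri), at chr12:116856144-116881441, minus strand, encodes a BH3-only protein best known from neurons. HRK had 0.188, 0.224 and 0 CPM in the shTRIP6 libraries, against 1.95, 1.89 and 2.26 CPM in the shControl libraries. These were 6, 7 and 0 counts in the shTRIP6 libraries, against 58, 59 and 70 counts in the shControl libraries. The groups did not overlap, and the 0 in shTRIP6 replicate 3 allows up to 0.0965 CPM. The level was 6.75% of that in shControl (log2 change -3.85 ± 0.52, adjusted p = 4e-06). With at most 7 counts in a shTRIP6 library, the size of the fall depended on the fit: it ranged from -4.46 with limma-voom to -3.27 without shTRIP6 replicate 3, and it was called in all 14 alternatives.

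BCL2L11 encodes BIM, which binds all the main anti-apoptotic BCL2 proteins and whose transcription is a known target of FOXO factors. The gene lies at chr2:111119378-111168447, plus strand. BCL2L11 had 11.9, 13.0 and 10.9 CPM in the shTRIP6 libraries, against 32.3, 25.0 and 26.5 CPM in the shControl libraries. All shTRIP6 libraries were below all shControl libraries, at 42.8% of the shControl mean (log2 change -1.22 ± 0.11, adjusted p = 1.12e-08). Without shControl replicate 1, the highest library, the log2 change was -1.11. The counts are per gene and do not separate the BIM isoforms, which differ in length and potency.

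BAD moved the other way. It encodes a BH3-only protein that growth-factor kinases phosphorylate and that 14-3-3 proteins then hold in the cytosol, and it lies at chr11:64269830-64284704, minus strand. BAD had 92.8, 87.7 and 85.1 CPM in the shTRIP6 libraries, against 40.9, 60.6 and 55.7 CPM in the shControl libraries. The groups did not overlap, and the rise was larger than the spread between libraries (log2 change 0.76 ± 0.10, adjusted p = 1.76e-06). It was 0.61 without shControl replicate 1, the lowest library. Of its exonic bases, 404 overlap exons of GPR137 on the opposite strand, which also rose, with means of 61.1 CPM in shTRIP6 and 46.8 CPM in shControl (log2 change 0.38, adjusted p = 2.83e-05). No source used here says whether counting was stranded, so reads of the shared stretch cannot be assigned.

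The other BH3-only genes were not called. BID, whose product is cleaved by caspase-8, averaged 44.2 ± 2.61 CPM in shTRIP6 and 39.7 ± 2.83 CPM in shControl (log2 change 0.15 ± 0.07, adjusted p = 0.0738). PMAIP1, which encodes the p53 target NOXA, a selective partner of MCL1, averaged 21.0 ± 0.646 CPM in shTRIP6 and 22.0 ± 1.58 CPM in shControl (log2 change -0.07 ± 0.09, adjusted p = 0.509). In both the groups overlapped. BIK, whose product sits at the endoplasmic reticulum, was the only 1 of the 34 with a mean under 1 CPM, and had 0.188, 0.256 and 0.193 CPM in the shTRIP6 libraries, against 0.403, 0.546 and 0.485 CPM in the shControl libraries. Its 6, 8 and 6 counts in shTRIP6 all lay below the shControl values, but the difference was not called (log2 change -1.16 ± 0.53, adjusted p = 0.0663).

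Divided by the summed length of each gene's exons, the levels can be compared between genes. BAD had the highest level per length of the BH3-only genes, with 66.7 CPM per kb in shTRIP6 and 39.5 CPM per kb in shControl. It made up 70.2% ± 0.869 in shTRIP6 and 53.2% ± 6.17 in shControl of the summed BH3-only level. BCL2L11, BMF and HRK together made up 2.37%, 2.64% and 2.47% of that sum in the shTRIP6 libraries, against 14.6%, 11.0% and 11.6% in the shControl libraries. The summed level itself averaged 95.1 ± 3.92 CPM per kb in shTRIP6 and 73.7 ± 6.37 CPM per kb in shControl, with all shTRIP6 libraries above all shControl libraries. The genes that fell were thus among the less abundant members of the group in both conditions, and the most abundant member rose.

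**Figure D2:**
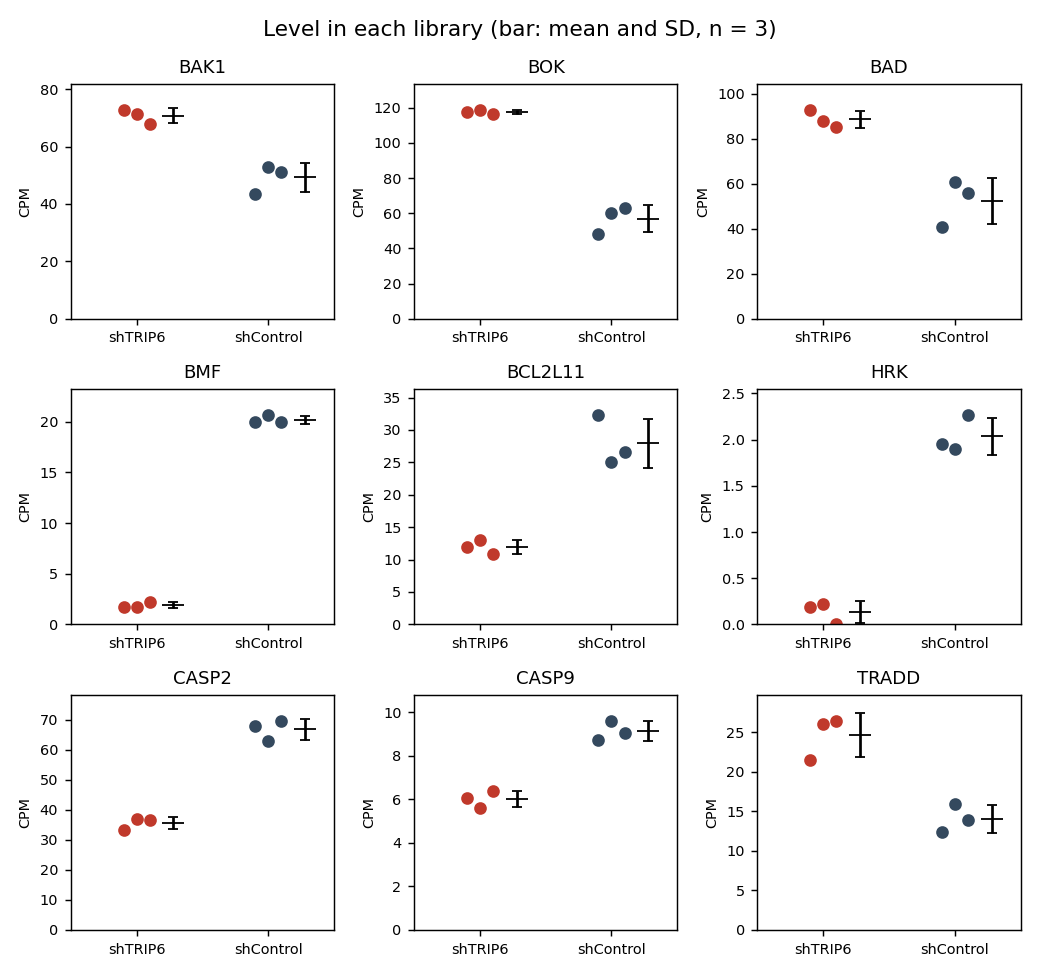
Level (CPM, linear axes from 0, 1 panel a gene) in each of the 3 shTRIP6 and 3 shControl libraries, with the mean and SD beside the points, for the 9 genes called with an absolute log2 change of 0.5 or more. BMF sits near 2 CPM in shTRIP6 and near 20 CPM in shControl, while BOK and BAD are higher in every shTRIP6 library.

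The stretches of 250 bases before the annotated start are shown for the 3 genes that fell most, from RefSeq (GRCh38.p14), whose promoter table held 27 of the 34 genes. Where the table gives a gene several starts, the first listed is used, for these genes and for the background of 27305 genes alike. They are written 5′ to 3′ on each gene's own strand, and capitals mark matches, on either strand, to the FOXO core GTAAACA and the GC box GGGCGG. The windows are chr15:40108880-40109129, minus strand for BMF, chr2:111120664-111120913, plus strand for BCL2L11 and chr12:116881442-116881691, minus strand for HRK. RefSeq and GENCODE 29 differ in the start of BCL2L11, whose window lies inside the GENCODE gene.
BMF: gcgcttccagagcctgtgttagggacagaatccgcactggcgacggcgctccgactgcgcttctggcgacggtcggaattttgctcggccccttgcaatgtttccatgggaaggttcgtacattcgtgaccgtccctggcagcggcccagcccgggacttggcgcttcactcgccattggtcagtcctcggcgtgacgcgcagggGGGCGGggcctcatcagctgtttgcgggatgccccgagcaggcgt
BCL2L11: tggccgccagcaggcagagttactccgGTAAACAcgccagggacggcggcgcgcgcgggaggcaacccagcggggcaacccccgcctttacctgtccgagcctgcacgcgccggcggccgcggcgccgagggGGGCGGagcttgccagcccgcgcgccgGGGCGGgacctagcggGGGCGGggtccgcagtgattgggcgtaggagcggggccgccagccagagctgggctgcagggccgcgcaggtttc
HRK: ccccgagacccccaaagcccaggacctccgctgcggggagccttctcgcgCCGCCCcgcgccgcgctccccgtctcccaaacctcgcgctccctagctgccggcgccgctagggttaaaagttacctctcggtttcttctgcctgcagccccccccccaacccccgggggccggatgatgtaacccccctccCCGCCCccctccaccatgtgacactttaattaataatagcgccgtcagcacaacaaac
These first windows held 26 CpG dinucleotides in BMF, 34 in BCL2L11 and 22 in HRK, beside a median of 11 (quartiles 3 and 23) over the first windows of all 27305 genes. BMF has another start, whose window at chr15:40106967-40107216, minus strand, held 0 CpG dinucleotides and 0 GC boxes. The 27 matched members had a median of 24 in their first windows. The GC box occurred in 19 of the 27 first windows and in 42.3% of those of all genes, and each of the 3 printed windows holds at least 1. The FOXO core occurred in 1 of the 27 first windows, in BCL2L11 at 223 bases before the start, and in 2.98% of those of all genes. The AP-1 motif TGANTCA occurred in 0 of the 27 first windows (6.60% of those of all genes) and the E-box CACGTG in 1, that of DFFA (6.49%). Windows of further listed starts hold AP-1 matches in CASP8 and CFLAR and E-box matches in BID, with no background counted for them. No printed matches overlap each other. Such matches describe letters in this window and show no binding.

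Both effectors among the 34 genes rose, beside 29.0% of all tested genes. BOK, an effector-like protein that endoplasmic reticulum-associated degradation keeps at low levels, lies at chr2:241551424-241574138, plus strand. BOK had 118, 119 and 117 CPM in the shTRIP6 libraries, against 48.3, 59.9 and 62.9 CPM in the shControl libraries. The shTRIP6 libraries were closely alike (118 ± 1.10 CPM) and well above the more scattered shControl libraries (57.0 ± 7.75 CPM). The log2 change was 1.04 ± 0.07 (adjusted p = 5.77e-10), and 0.94 without shControl replicate 1. BAK1, at chr6:33572547-33580293, minus strand, encodes BAK, which resides at the mitochondrial outer membrane. BAK1 had 72.8, 71.5 and 67.9 CPM in the shTRIP6 libraries, against 43.4, 53.0 and 51.3 CPM in the shControl libraries. Its highest control library was below its lowest shTRIP6 library (log2 change 0.52 ± 0.07, adjusted p = 3.79e-06). The summed level per length of both genes averaged 76.3 ± 1.43 CPM per kb in shTRIP6 and 43.7 ± 5.15 CPM per kb in shControl. Per length, BOK had 44.3 CPM per kb in shTRIP6 and 21.5 CPM per kb in shControl, and BAK1 32.0 CPM per kb in shTRIP6 and 22.3 CPM per kb in shControl, so BOK stood above BAK1 in shTRIP6 and close to it in shControl. BAX, the other classical effector, which is not among the 34, averaged 135 ± 2.72 CPM in shTRIP6 and 115 ± 5.47 CPM in shControl, and was also called higher (log2 change 0.23 ± 0.05, adjusted p = 0.000576).

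Of the 4 anti-apoptotic genes, 1 rose (25.0%, beside 29.0% of all tested genes), 1 fell (25.0%, beside 31.2%) and 2 were not called. MCL1 encodes a short-lived protein that restrains BAK and binds BIM and NOXA. MCL1 had 476, 483 and 492 CPM in the shTRIP6 libraries, against 375, 414 and 414 CPM in the shControl libraries. All shTRIP6 libraries were above all shControl libraries (log2 change 0.27 ± 0.05, adjusted p = 4.94e-05). BCL2, the founding member, fell: it had 11.1, 8.44 and 8.49 CPM in the shTRIP6 libraries, against 11.5, 12.7 and 14.1 CPM in the shControl libraries, with every shTRIP6 library below every shControl library (log2 change -0.45 ± 0.13, adjusted p = 0.00637). BCL2L1, which encodes BCL-XL and, by alternative splicing, the pro-apoptotic BCL-XS, averaged 212 ± 6.20 CPM in shTRIP6 and 198 ± 5.76 CPM in shControl. The groups did not overlap, but the difference was not called (log2 change 0.10 ± 0.05, adjusted p = 0.0589), and it was called in 3 of 14 alternatives. The antisense gene ABALON, which shares 1424 exonic bases with BCL2L1, rose (log2 change 0.19, adjusted p = 0.00585), so the counts of BCL2L1 are uncertain. BCL2L2, which encodes BCL-W, averaged 32.2 ± 1.54 CPM in shTRIP6 and 29.7 ± 1.86 CPM in shControl, with overlapping groups (log2 change 0.12 ± 0.08, adjusted p = 0.197). It shares 813 exonic bases with the readthrough gene BCL2L2-PABPN1 on the same strand, so its counts are uncertain.

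Per length, the order of the anti-apoptotic genes was the same in both groups, with MCL1 first, then BCL2L1, BCL2L2 and BCL2. MCL1 had 118 CPM per kb in shTRIP6 and 98.1 CPM per kb in shControl, and made up 58.5% ± 1.12 in shTRIP6 and 55.6% ± 0.885 in shControl of the summed anti-apoptotic level. BCL2L1 made up 36.7% ± 0.981 in shTRIP6 and 39.2% ± 0.947 in shControl, and BCL2 0.393% ± 0.0628 in shTRIP6 and 0.614% ± 0.0404 in shControl. The sum averaged 202 ± 0.505 CPM per kb in shTRIP6 and 177 ± 7.48 CPM per kb in shControl. Neighbours in this order lay far apart relative to the spread between libraries.

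**Figure D3:**
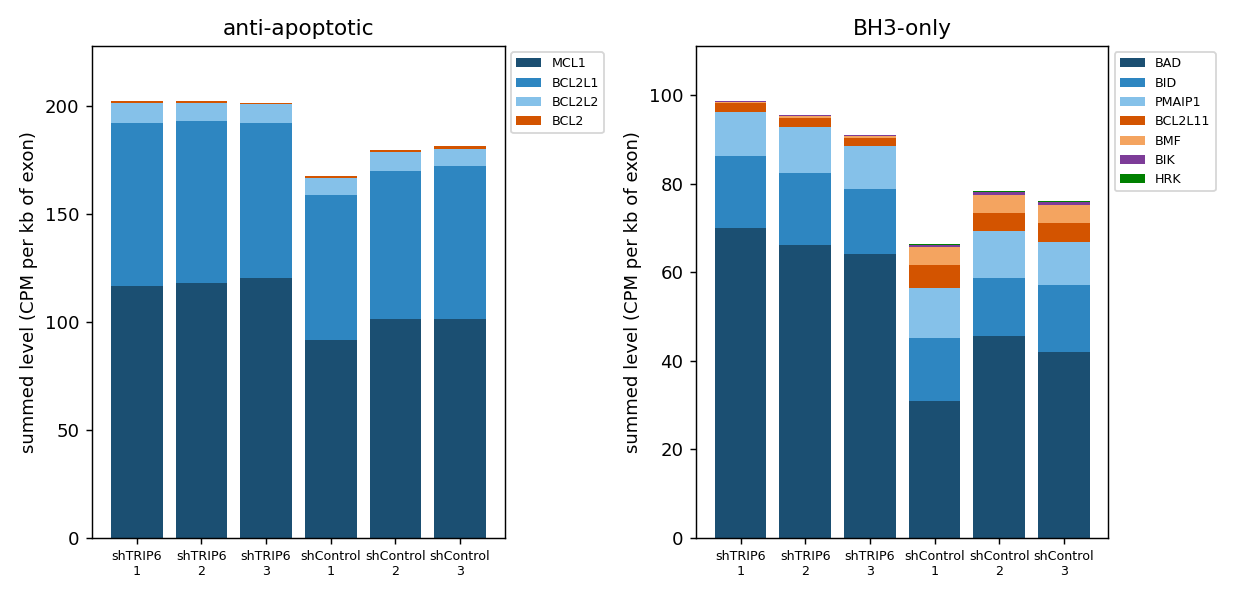
Summed level per length (CPM per kb of exons) of the anti-apoptotic and the BH3-only genes in each shTRIP6 and shControl library, with each gene as a coloured part of its bar. The anti-apoptotic bars average 202 in shTRIP6 and 177 in shControl, and in the BH3-only bars the part of BAD is larger, and the parts of BCL2L11 and BMF smaller, in every shTRIP6 library.

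Among the genes acting after mitochondrial permeabilisation, 2 of 5 rose (beside 29.0% of all tested genes) and 0 fell (beside 31.2%). CYCS, which encodes cytochrome c, had 295, 307 and 318 CPM in the shTRIP6 libraries, against 214, 234 and 234 CPM in the shControl libraries. It had the highest level per length of this role (68.8 CPM per kb in shTRIP6 and 51.1 CPM per kb in shControl), and its groups did not overlap (log2 change 0.43 ± 0.05, adjusted p = 3.9e-07). GENCODE 29 lists 40 numbered CYCS pseudogenes, with which reads may be shared. HTRA2, a mitochondrial serine protease that antagonises inhibitor of apoptosis proteins, averaged 68.4 ± 3.29 CPM in shTRIP6 and 52.6 ± 1.11 CPM in shControl (log2 change 0.38 ± 0.06, adjusted p = 2.16e-05). It shares 483 exonic bases with AUP1 and 625 with LOXL3, both on the opposite strand and neither called. APAF1, the scaffold of the apoptosome, averaged 30.4 ± 1.45 CPM in shTRIP6 and 26.8 ± 1.97 CPM in shControl, without overlap but not called (log2 change 0.18 ± 0.08, adjusted p = 0.0575). DIABLO (SMAC), which also antagonises inhibitor of apoptosis proteins, averaged 51.0 ± 3.59 CPM in shTRIP6 and 54.1 ± 2.22 CPM in shControl (log2 change -0.09 ± 0.07, adjusted p = 0.271). It shares 916 exonic bases with B3GNT4 on the opposite strand, which was not called, so the counts of DIABLO are uncertain. AIFM1, a mitochondrial flavoprotein, averaged 80.3 ± 2.01 CPM in shTRIP6 and 80.3 ± 2.51 CPM in shControl (log2 change 0.00 ± 0.05, adjusted p = 0.995). In DIABLO and AIFM1 the groups overlapped.

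Of 6 caspase genes, 2 fell (33.3%, beside 31.2% of all tested genes), 1 rose (16.7%, beside 29.0%) and 3 were not called. CASP2, at chr7:143288215-143307696, plus strand, encodes an initiator caspase activated on the PIDDosome, a complex of PIDD1 and CRADD. CASP2 had 33.2, 36.8 and 36.5 CPM in the shTRIP6 libraries, against 67.9, 62.8 and 69.6 CPM in the shControl libraries. The groups were widely separated, with shTRIP6 at 53.2% of the shControl mean (log2 change -0.91 ± 0.07, adjusted p = 9.36e-10). Of its PIDDosome partners, which are not among the 34, PIDD1 averaged 25.9 ± 1.83 CPM in shTRIP6 and 9.57 ± 1.54 CPM in shControl and rose (log2 change 1.44 ± 0.11, adjusted p = 2.46e-09), and CRADD averaged 10.2 ± 1.67 CPM in shTRIP6 and 9.14 ± 1.21 CPM in shControl and was not called (log2 change 0.16 ± 0.14, adjusted p = 0.366). PIDD1 shares 107 exonic bases with RPLP2 and 12 with PANO1, both on the opposite strand, so reads of these stretches cannot be assigned. CASP9, at chr1:15490832-15526534, minus strand, encodes the initiator of the apoptosome. CASP9 had 6.06, 5.60 and 6.37 CPM in the shTRIP6 libraries, against 8.70, 9.60 and 9.06 CPM in the shControl libraries. Each shTRIP6 library lay under each shControl library (log2 change -0.60 ± 0.13, adjusted p = 0.000771).

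CASP8, the initiator at death receptors, averaged 71.5 ± 1.79 CPM in shTRIP6 and 61.4 ± 1.58 CPM in shControl and rose (log2 change 0.22 ± 0.06, adjusted p = 0.00224). CASP10, its close relative, averaged 9.37 ± 0.855 CPM in shTRIP6 and 7.34 ± 2.09 CPM in shControl, with overlapping groups (log2 change 0.35 ± 0.17, adjusted p = 0.0802). Without shControl replicate 2, its highest control library, the log2 change of CASP10 was 0.61 (adjusted p = 0.00257, edgeR), over a range of adjusted p from 0.00257 to 0.278 in all 14 alternatives. CASP6, an executioner, averaged 14.5 ± 1.11 CPM in shTRIP6 and 12.4 ± 0.628 CPM in shControl, without overlap but not called (log2 change 0.22 ± 0.11, adjusted p = 0.0748). CASP4, an inflammatory caspase that senses cytosolic lipopolysaccharide, had the highest level per length of the 6 (31.4 CPM per kb in shTRIP6 and 29.8 CPM per kb in shControl). CASP4 had 69.6, 69.6 and 73.4 CPM in the shTRIP6 libraries, against 77.0, 58.6 and 66.4 CPM in the shControl libraries. The shControl values spanned the shTRIP6 values (log2 change 0.07 ± 0.08, adjusted p = 0.418). Without shControl replicate 1, the highest library, its log2 change was 0.18 (adjusted p = 0.00823, edgeR, with a range of 0.00823 to 0.862 over its 14 alternatives).

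BIRC2, which encodes the ubiquitin ligase cIAP1 of tumour necrosis factor receptor signalling, had 129, 133 and 148 CPM in the shTRIP6 libraries, against 100.3, 90.8 and 99.7 CPM in the shControl libraries. It rose, and the groups did not overlap (log2 change 0.50 ± 0.06, adjusted p = 8.31e-07). BIRC6, a giant ubiquitin-conjugating inhibitor of apoptosis, averaged 132 ± 2.40 CPM in shTRIP6 and 139.8 ± 12.3 CPM in shControl, and its groups overlapped (log2 change -0.08 ± 0.06, adjusted p = 0.235). XIAP, the direct caspase inhibitor, is not among the 34 and was named after its values were seen. It averaged 80.8 ± 3.00 CPM in shTRIP6 and 68.2 ± 1.71 CPM in shControl and rose (log2 change 0.25 ± 0.06, adjusted p = 8e-04).

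At the death receptors, 5 of 6 genes rose (83.3%, beside 29.0% of all tested genes called higher) and 1 fell (16.7%, beside 31.2% called lower). Related genes outside these 6 were more mixed. Of 12 other receptor adaptors tested, 5 rose and 5 fell. Of 9 other receptors or ligands tested, 4 rose and 2 fell. The adaptor TRADD, which couples TNF receptor 1 to RIPK1, lies at chr16:67154180-67160298, minus strand. TRADD had 21.4, 26.1 and 26.5 CPM in the shTRIP6 libraries, against 12.4, 15.9 and 13.9 CPM in the shControl libraries. The groups did not overlap (log2 change 0.81 ± 0.11, adjusted p = 3.13e-06), and without shControl replicate 1, the lowest library, the log2 change was 0.73. FADD, the adaptor that binds the death domains of receptors and the precursor of caspase-8, averaged 65.0 ± 1.14 CPM in shTRIP6 and 48.8 ± 1.80 CPM in shControl (log2 change 0.41 ± 0.06, adjusted p = 7.13e-06). CFLAR (c-FLIP), the caspase-8 relative that limits activation in this complex, averaged 111 ± 1.68 CPM in shTRIP6 and 80.3 ± 3.02 CPM in shControl (log2 change 0.47 ± 0.05, adjusted p = 2.82e-07). The counts do not separate its long and short forms. RIPK1, a kinase that can switch signalling between survival and death, averaged 53.6 ± 2.08 CPM in shTRIP6 and 44.8 ± 2.22 CPM in shControl (log2 change 0.26 ± 0.06, adjusted p = 0.00191). TNFRSF10A, the TRAIL receptor DR4, averaged 17.0 ± 0.456 CPM in shTRIP6 and 12.9 ± 1.27 CPM in shControl (log2 change 0.40 ± 0.10, adjusted p = 0.00237). In TRADD, FADD, CFLAR, RIPK1 and TNFRSF10A, each shTRIP6 library was above each shControl library. Of all tested genes, 65.3% had groups that did not overlap, in either direction.

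TNFRSF1A, which encodes TNF receptor 1, was the exception. TNFRSF1A had 153, 149 and 134 CPM in the shTRIP6 libraries, against 172, 171 and 183 CPM in the shControl libraries. Every shTRIP6 library was below every shControl library (log2 change -0.27 ± 0.05, adjusted p = 0.000282). By summed exon length, TNFRSF1A also had the highest level in this role (48.7 CPM per kb in shTRIP6 and 58.8 CPM per kb in shControl). That length is 2977 bases for TNFRSF1A and 20637 for CFLAR, and the order under other lengths was not tested. The summed level of the role averaged 119 ± 3.32 CPM per kb in shTRIP6 and 110.4 ± 3.74 CPM per kb in shControl.

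Of the nuclease pair, DFFA encodes the inhibitor and chaperone (ICAD) that caspases cleave, and DFFB the nuclease (CAD) that then fragments DNA. DFFA had 74.8, 83.2 and 77.9 CPM in the shTRIP6 libraries, against 62.5, 54.8 and 51.1 CPM in the shControl libraries. DFFA rose, without overlap of the groups (log2 change 0.49 ± 0.07, adjusted p = 8.46e-06). DFFB averaged 5.71 ± 0.432 CPM in shTRIP6 and 5.43 ± 1.75 CPM in shControl. Its shControl libraries enclosed the shTRIP6 libraries (log2 change 0.07 ± 0.20, adjusted p = 0.781). Per length, DFFA had 11.9 CPM per kb in shTRIP6 and 8.48 CPM per kb in shControl, and DFFB 1.79 CPM per kb in shTRIP6 and 1.71 CPM per kb in shControl.

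Several of these genes lie in tandem clusters, and cluster neighbours did not always move together. On chromosome 2, CFLAR (chr2:201116104-201176687, plus strand), CASP10 (chr2:201182881-201229406, plus strand) and CASP8 (chr2:201233443-201287711, plus strand) follow each other, with log2 changes of 0.47, 0.35 and 0.22, of which that of CASP10 was not called. On chromosome 11, BIRC2 rose while the adjacent paralog BIRC3 (cIAP2), which averaged 69.2 ± 1.45 CPM in shTRIP6 and 78.8 ± 4.98 CPM in shControl, fell (log2 change -0.19 ± 0.06, adjusted p = 0.0101). The call of BIRC3 was lost without shTRIP6 replicate 2 (adjusted p = 0.0599, edgeR, with a range of 0.00428 to 0.0599 over its 14 alternatives). In the inflammatory caspase cluster of the same chromosome, CASP4 was not called and CASP1, the interleukin-1 beta converting enzyme, averaged 2.14 ± 0.298 CPM in shTRIP6 and 8.53 ± 1.24 CPM in shControl and fell (log2 change -1.99 ± 0.18, adjusted p = 2.07e-08). CASP5, between them, did not pass the low-count filter. Among the 4 TRAIL receptors, DR4 (TNFRSF10A) rose and DR5 (TNFRSF10B) fell, averaging 167 ± 0.687 CPM in shTRIP6 and 208 ± 11.4 CPM in shControl (log2 change -0.32 ± 0.05, adjusted p = 1.65e-05). The decoy TNFRSF10D, which lacks a complete death domain, averaged 89.7 ± 3.65 CPM in shTRIP6 and 66.9 ± 3.12 CPM in shControl and rose (log2 change 0.42 ± 0.06, adjusted p = 3.63e-06). TNFRSF10C, a decoy without an intracellular death domain, averaged 1.85 ± 0.679 CPM in shTRIP6 and 0.821 ± 0.430 CPM in shControl (log2 change 1.16 ± 0.40, adjusted p = 0.0182). The call of TNFRSF10C was lost without shTRIP6 replicate 2 (adjusted p = 0.146, edgeR) and without shControl replicate 1 (adjusted p = 0.0576, edgeR), with a range of 0.00441 to 0.146 over its 14 alternatives.

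**Figure D4:**
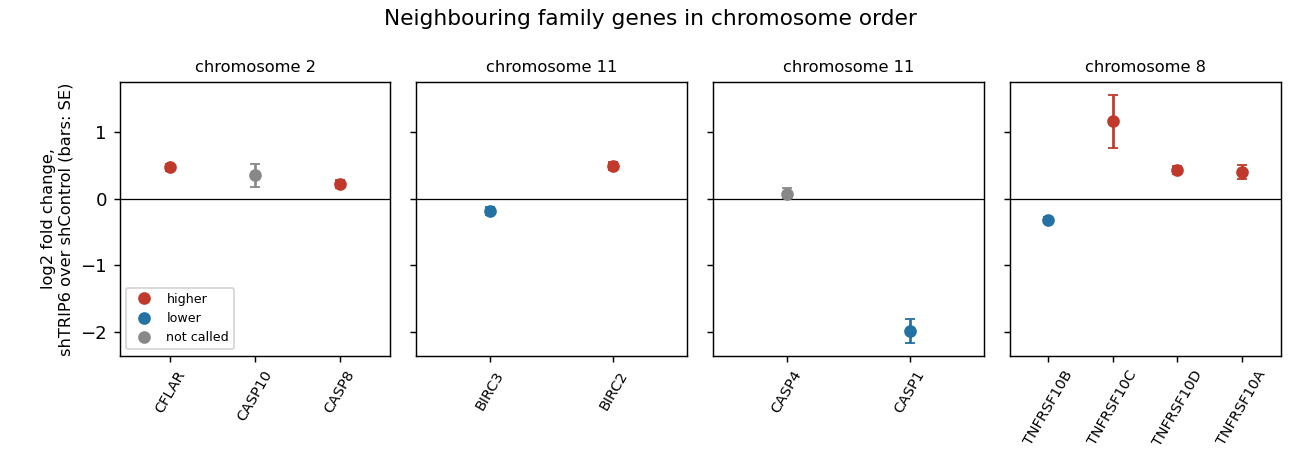
Log2 change of shTRIP6 over shControl (bars of 1 SE) for the genes of 4 tandem clusters in chromosomal order, coloured by call. BIRC2 (0.50) and BIRC3 (-0.19) lie on opposite sides of 0, as do TNFRSF10A (0.40) and TNFRSF10B (-0.32).

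The genes beside the 4 called members with the largest absolute log2 changes were compared with them, taking the 4 tested genes on each side. Of all tested genes, 29.0% were called higher and 31.2% lower. Around BOK, 7 of 8 neighbours rose and 0 fell, with log2 changes of all 8 from 0.27 to 1.72. The antisense gene BOK-AS1, which shares 201 exonic bases with BOK, averaged 5.19 CPM in shTRIP6 and 1.58 CPM in shControl (log2 change 1.72, adjusted p = 4.53e-05, edgeR). Reads of that shared stretch cannot be assigned, so BOK-AS1, the neighbour with the largest change, may not be independent of BOK. STK25 had a log2 change of 0.71 and ING5 one of 0.64, both called. Around BMF, 3 neighbours rose, 3 fell and 2 were not called, and the nearest tested genes were SRP14-AS1 (0.53, not called) and BUB1B (-0.45, called). Around BCL2L11, 3 rose, 2 fell and 3 were not called, and the farthest of them, FBLN7, had 0 counts in shTRIP6 and 2.42 CPM in shControl, which is at least 75.9-fold lower if the shTRIP6 group is credited with 3 counts in all. Its overlapping long noncoding neighbour MIR4435-2HG, with 727 shared exonic bases, averaged 92.1 CPM in shTRIP6 and 89.8 CPM in shControl and was not called (log2 change 0.04, adjusted p = 0.59, edgeR). Around HRK, 1 rose, 4 fell and 3 were not called, with log2 changes from -1.08 to 0.18. BMF and HRK thus changed more than any of their 8 neighbours, and BOK more than any of its own except BOK-AS1. Of the 8 neighbours, 7 rose around BOK and 4 fell around HRK. Whether these changes were local or regional was not tested.

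**Figure D5:**
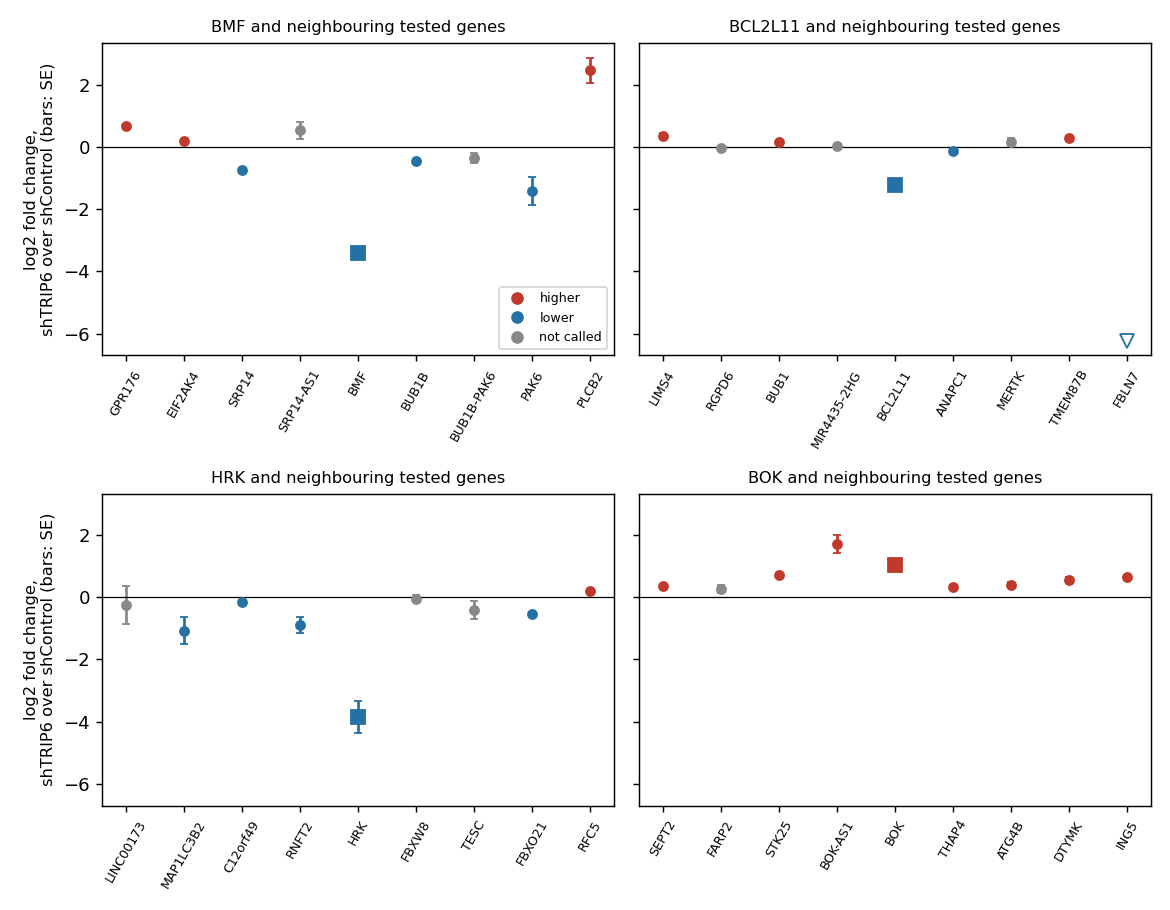
Log2 change of shTRIP6 over shControl for BOK, BMF, BCL2L11 and HRK (squares) and for the 4 tested genes on each side, in chromosomal order, with bars of 1 SE. The open triangle of FBLN7 is a bound, since it had 0 counts in shTRIP6. All 8 neighbours of BOK lie above 0, between 0.27 and 1.72, while those of BMF lie between -1.42 and 2.46.

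A further 64 genes of the apoptosis pathway that are not among the 34 were listed by function. Of these, 51 were tested, 22 rose (43.1%, beside 29.0% of all tested genes), 16 fell (31.4%, beside 31.2%) and 13 were not called, with a median log2 change of 0.08. The largest falls were those of TNFRSF21 (DR6), a death receptor, with 6.80 ± 0.599 CPM in shTRIP6 and 49.3 ± 2.10 CPM in shControl (log2 change -2.86 ± 0.09, adjusted p = 2.29e-15), and of CASP1, given above. TNFAIP3 (A20), a ubiquitin-editing enzyme that restrains NF-kB signalling, averaged 4.01 ± 0.167 CPM in shTRIP6 and 9.45 ± 1.60 CPM in shControl (log2 change -1.23 ± 0.16, adjusted p = 1.88e-06). BAG1, a BCL2-binding cochaperone, averaged 28.6 ± 0.874 CPM in shTRIP6 and 61.8 ± 5.89 CPM in shControl (log2 change -1.11 ± 0.07, adjusted p = 2.58e-10). The largest rises at a mean of 1 CPM or more were those of PIDD1 and TNFRSF10C, given above, then AVEN, an APAF1- and BCL-XL-binding protein, with 12.5 ± 0.456 CPM in shTRIP6 and 8.44 ± 1.20 CPM in shControl (log2 change 0.57 ± 0.13, adjusted p = 0.00069), and PEA15, a death effector domain protein, with 603 ± 19.0 CPM in shTRIP6 and 409 ± 15.7 CPM in shControl (log2 change 0.56 ± 0.04, adjusted p = 2.26e-09). BBC3 (PUMA), the other p53-induced BH3-only gene, was named after its values were seen. It averaged 11.4 ± 1.01 CPM in shTRIP6 and 10.8 ± 1.46 CPM in shControl, with overlapping groups, and was not called (log2 change 0.08 ± 0.13, adjusted p = 0.612). Of the 13 genes that were not tested, TNFSF10 (TRAIL) had 0, 4 and 0 counts in the shTRIP6 libraries, against 30, 14 and 8 counts in the shControl libraries, and RIPK3 had 0 counts in all 6 libraries.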

How the data were processed

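The authors deposited raw read counts per gene symbol, 1 file a library, with no normalization. Per the submitters' processing notes, TopHat2, edgeR, limma and the build hg38 were named, without role or version. How reads were counted, on which annotation and with which strand setting, was not given in sources used here. Per the labels, RNA was extracted with a mirVana kit.

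Groups and replicate numbers came from the labels. Nothing there says that replicates came from separate cultures, so p-values measure the spread between these libraries, which may be technical. The members and lists were chosen with earlier results of these data known.

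Counts were analysed with edgeR 4.0.16 in R 4.3.3, using TMM scaling, the filterByExpr filter and the quasi-likelihood test with 1 term, group, fitted on all genes with Benjamini-Hochberg adjustment over 15473 genes and called under 0.05. SE was the log2 fold change divided by the square root of F. CPM used TMM-scaled library sizes. Levels per kb used the union of exons of the transcripts that GENCODE 29 tags as basic. Overlaps were counted over all GENCODE 29 exons, and 15 of the 34 genes have exons overlapping another gene of the table. A gene with 0 counts was given a limit of 3 counts. Such a limit covers counting error only, whereas SD and SE include the spread between libraries.

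Values by library are given for called genes with an absolute log2 fold change of 0.5 or more and a mean of 1 CPM or more, for the highest gene per kb of each role, and for BCL2 and BIK, added after their values were seen. Of the further pathway genes, up to 4 rises and 4 falls were named by size, and BAX, BBC3, CRADD, XIAP, BIRC3, TNFRSF10B, TNFRSF10D, TNFSF10 and RIPK3 after their values were seen. Alternatives were other scalings (RLE, upper-quartile, none), no filter or one of at least 1 CPM in 3 libraries, DESeq2 1.42.0, voom from limma 3.58.1, the replicate number as a block and leaving out each library. Protein sequences were not used here, and some genes of the lists are not reported here.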

Additional observations from a re-analysis of the deposited data

How the results depend on the processing

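All 21 calls among the 34 genes kept their direction and stayed under an adjusted p of 0.05 (edgeR, DESeq2 or limma) in each of the 14 alternatives that tested them. Of 475 values of single genes under an alternative, 461 stayed on the same side of the threshold, 0 lost a call, 0 reversed and 14 gained one. The gains fell on BCL2L1, BID, CASP4, CASP6, CASP10 and APAF1. The count of the 34 called higher ranged from 14 to 19, the highest with upper-quartile scaling, and the count called lower was 7 throughout. Over all genes, 8460 to 9644 were called, and the median log2 fold change moved from -0.004 to 0.044 with upper-quartile scaling. Among the further pathway genes, 21 to 24 were called higher and 14 to 17 lower. Leaving out 1 library at a time, TRIP6 ranged from -2.10 to -1.98. The share of BCL2 in the summed anti-apoptotic level was lower in shTRIP6 by each length measure used. Differences were -0.22 percentage points with the union of exons, -0.33 with the longest coding transcript, an alternative chosen after seeing the data, and -0.72 with no length.

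With the replicate number as a block, 9079 genes were called, 15 of the 34 were higher and 7 lower, and TRIP6 was at -2.04. Among the further genes 22 were higher and 15 lower. The deviations of same-numbered libraries correlated at -0.002, 0.01 and -0.069, and 0 of 3 shTRIP6 libraries correlated best with the shControl library of their own number, so the numbers were not taken as pairs.

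Depth limits HRK and BIK, with 0 to 8 counts in each shTRIP6 library, and the genes that were not tested. Gene counts do not separate isoforms, and exon overlaps leave BAD, BCL2L2, BCL2L1 and others uncertain.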

Other observations

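Beyond apoptosis itself, the genes of necroptosis were partly undetected. RIPK3, the kinase that acts after RIPK1, had 0 counts in all 6 libraries, and its substrate MLKL, the membrane-permeabilising pseudokinase, averaged 34.5 ± 1.10 CPM in shTRIP6 and 42.9 ± 2.29 CPM in shControl (log2 change -0.32 ± 0.07, adjusted p = 0.000639, edgeR). The soluble decoy receptor TNFRSF6B (DcR3), which binds FAS ligand, averaged 325 ± 16.6 CPM in shTRIP6 and 247 ± 12.2 CPM in shControl and rose (log2 change 0.39 ± 0.05, adjusted p = 1.62e-06, edgeR). It shares 1141 exonic bases, its full exon length, with the readthrough gene RTEL1-TNFRSF6B on the same strand, so its counts are uncertain. FAS averaged 29.2 ± 1.03 CPM in shTRIP6 and 27.0 ± 0.811 CPM in shControl, without overlap of the groups but not called (log2 change 0.11 ± 0.07, adjusted p = 0.2, edgeR), and its ligand gene FASLG did not pass the low-count filter. TRAF2, which brings BIRC2 and BIRC3 to TNF receptor complexes, averaged 42.5 ± 2.93 CPM in shTRIP6 and 55.8 ± 6.24 CPM in shControl and fell (log2 change -0.39 ± 0.08, adjusted p = 0.000282, edgeR). BIRC5 (survivin), which also acts in mitosis, averaged 198 ± 6.77 CPM in shTRIP6 and 163 ± 9.39 CPM in shControl and rose (log2 change 0.28 ± 0.05, adjusted p = 0.000117, edgeR). These genes were named after their values were seen.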
